A study of Rattus norvegicus with 8 samples.

Results

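Immediate early genes are switched on within minutes of a stimulus, from transcription factors already present in the cell, and in neurons the usual stimulus is calcium entry during firing. The set described here holds 10 genes of this kind: the Fos family members Fos, Fosb and Fosl2, their dimer partner Junb, the zinc finger factors Egr1 to Egr4, the neuron-specific factor Npas4, and Ier2, a nuclear immediate early protein. The genes were proposed with earlier results of these data in view, and their probes were found by gene name. Of the 45598 non-control probes on the array, 15 carry 1 of these names. All 10 genes were measured by at least 1 probe that passed the filter on dim signal, 14 probes in all, among 22588 genes tested; Npas4 passed through its scrambled shRNA arrays alone.

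The arrays profiled hippocampal neurons taken from newborn Wistar rats and grown in culture, in a study of what SIRT6 does in neuronal morphogenesis. Lentiviral vectors were added after 3 days in vitro, at 6 infectious units per cell, and RNA was collected 7 days later, on day 10. The medium was NeurobasalA with B27 and Glutamax. One group of 4 samples (scrambled shRNA) received a scrambled control hairpin and the other group of 4 (Sirt6 shRNA) a hairpin against rat Sirt6. Only 1 hairpin was used in each group, and no stimulus that raises activity is recorded in the labels. Nothing in the labels says whether the 4 samples of a group were separate cultures, so p-values reflect only how much these samples varied, and that variation may be technical.

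Sirt6 itself was at 34.6% of the control level in the Sirt6 shRNA arrays (limma adjusted p = 5.54e-06), and the groups did not overlap. The 8 arrays had 60.4% to 65.3% of probes well above background. All 8 lay on 1 slide, the scrambled shRNA arrays in row 1 and the Sirt6 shRNA arrays in row 2, so an effect of the row cannot be told apart from that of the shRNA. Over all genes tested, 14.8% were called lower and 15.6% higher at an adjusted p under 0.05 (limma), 30.4% in either direction. The 15 neuron markers were all well above background on the 8 arrays; 3 were lower and 4 higher with the Sirt6 shRNA, and Snap25, a synaptic fusion protein, had a log2 fold change of 0.0063. The cultures also held RNA of other cells. Of 10 astrocyte markers, 7 were lower and 0 higher, and their summed level, in units of the array's 75th percentile signal, ran from 309 to 338 in the scrambled shRNA arrays and from 212 to 236 in the Sirt6 shRNA arrays. Of 10 microglia markers 3 fell and 0 rose, a share in either direction near that of all genes. The share called lower was 30%, against 14.8% of all genes, and the median log2 fold change of the list was -0.48. Leaving out 1 array gave between 1 and 8 calls. The summed levels of these markers were 29.0 to 40.9 against 20.8 to 41.2. Of the 8 endothelial and mural markers tested, 4 rose and 0 fell, with summed levels of 3.93 to 4.67 against 11.7 to 14.2. The rise of this sum lay largely in 1 gene, Tagln, with a mean signal of 780 against 3516. The next brightest, Pdgfrb, had 245 against 239, so the sum does not measure these cell types as a whole. The part of the other cells in the results below was not tested. In bulk RNA fewer cells of a type and less RNA per cell cannot be told apart.

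Most of the immediate early factors were lower in the cultures that received the Sirt6 shRNA. Of the 10 genes, 8 were lower at an adjusted p under 0.05 and 0 were higher; Fosl2 and Egr3 did not pass. Npas4 is 1 of the 8 and had entered the test only through the group in which it was high; with a filter that required all 8 arrays to be well above background it was left out, 7 genes were called lower and the median log2 fold change was -0.78. The share called lower over all genes was 14.8%. Among all called genes 51.3% were higher with 75th percentile scaling, 35.2% with median centring and 62.1% with scaling on spike-ins. The median log2 fold change of the 10 genes was -0.85, against 0.021 over all genes. Fosb, Npas4, Fos and Egr4 were called and lower by 2-fold or more, which held for 0.558% of all genes. In 8 of the 10 genes every Sirt6 shRNA array lay below every scrambled shRNA array, a pattern found for 16.1% of all genes. Npas4 is counted in both of these as well, although only its scrambled shRNA arrays carried it past the filter. These 10 genes were proposed with earlier results of these data in view, so the counts describe them and support nothing further.

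**Figure D1:**
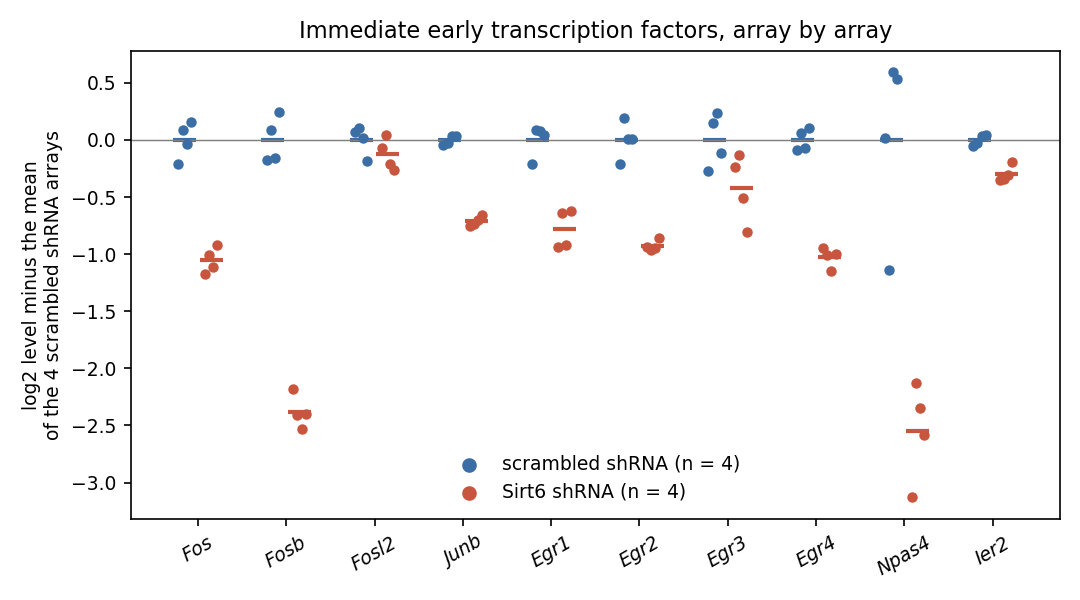
Levels of the 10 genes in each of the 8 arrays. The y axis gives the log2 level minus the mean of the 4 scrambled shRNA arrays; points are arrays, from replicate 1 on the left to replicate 4 on the right within a group, and bars are group means. The groups overlap for Fosl2 and Egr3 only, and for Npas4 the Sirt6 shRNA points all lie at background level.

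Sequences of some of the probes behind these values are printed first, as deposited, 5′ to 3′ in lower case with nothing marked. Each is 60 bases. The Npas4 probe is the only one for its gene and sits at chr1:207598453-207598512 (minus strand, build rn4). That of Junb sits at chr19:24832781-24832840 (plus strand, rn4). Ier2 has a probe near the start of its transcript, at chr19:25159377-25159436 (plus strand, rn4), beside a brighter one further along. The Fosl2 probes have no genome position in the files; 2 of the 3 carry the same sequence under different names and so measure 1 target in duplicate. Which exon each probe lies in was not analysed here.
Npas4, A_64_P064531: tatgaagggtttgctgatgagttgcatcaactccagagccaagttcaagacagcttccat
Junb, A_43_P12125: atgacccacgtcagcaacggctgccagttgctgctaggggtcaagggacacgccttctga
Ier2, A_44_P1158781: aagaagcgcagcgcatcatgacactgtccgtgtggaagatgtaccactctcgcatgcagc
Fosl2, A_44_P1082224: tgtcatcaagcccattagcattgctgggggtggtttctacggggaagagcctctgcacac
Fosl2, A_64_P065063: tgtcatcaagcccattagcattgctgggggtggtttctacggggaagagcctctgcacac
Fosl2, A_44_P1152997: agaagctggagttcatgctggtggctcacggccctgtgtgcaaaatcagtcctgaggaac

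Fos family proteins pair with Jun proteins to form AP-1, which binds DNA as a dimer. Fos, whose transcript is the classic short-lived marker of recent neuronal firing, had processed signals of 411, 515, 493 and 544 in scrambled shRNA replicates 1 to 4 and of 222, 247, 241 and 260.1 in Sirt6 shRNA replicates 1 to 4. All 4 Sirt6 shRNA arrays were below the lowest scrambled shRNA array. Its level fell by 1.05 ± 0.090 (SE, n = 4 per group) in log2, to 48.2% of the control (limma adjusted p = 0.00016).

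Fosb, whose product accumulates with repeated activity, had signals of 81.9, 100.1, 88.0 and 112 with the scrambled shRNA. With the Sirt6 shRNA they were 21.6, 18.2, 17.5 and 18.1, so the groups were far apart and the Sirt6 shRNA arrays differed little among themselves. Fosb was 5.20-fold lower (95% interval 4.35 to 6.22; limma adjusted p = 2.45e-05). The size depends on how low signals are treated: its log2 fold change was -2.38 here, -1.71 with 16 added to each signal and -1.06 with normexp background correction at an offset of 50, called each time.

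Fosl2, the Fos relative also known as Fra-2, did not move with them on its brightest probe. Signals were 50.8, 53.1, 51.9 and 43.5 with the scrambled shRNA and 48.8, 52.0, 45.7 and 41.6 with the Sirt6 shRNA, and the groups overlapped. The log2 fold change was -0.12 (95% interval -0.33 to 0.079; limma adjusted p = 0.32). Its other target was read by both probes of identical sequence printed above. Under the first name the signals were 30.9, 28.0, 23.9 and 28.5 against 21.8, 25.8, 30.4 and 21.6, with a log2 fold change of -0.21 ± 0.13 (SE; adjusted p = 0.25 over all kept probes, limma). Under the second name they were 25.0, 30.2, 31.9 and 31.4 against 26.7, 20.6, 25.4 and 21.95, with -0.37 ± 0.094 (adjusted p = 0.022). The same 60 bases on the same arrays thus fell on different sides of the threshold at this signal. With the mean of all its probes Fosl2 was called, at -0.23 in log2 (limma adjusted p = 0.013).

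Junb, a Jun protein that dimerises with Fos proteins and is itself induced by activity, had the smallest standard error of the 10. Its signals were 131, 135, 147 and 142 with the scrambled shRNA and 84.6, 84.8, 90.9 and 88.3 with the Sirt6 shRNA. The level fell by 0.71 ± 0.039 (SE) in log2, to 61.0% of the control (limma adjusted p = 3.03e-05), without overlap. The other Jun genes, outside the 10, gave -0.00042 ± 0.037 for Jun and 0.14 ± 0.046 for Jund in log2, and neither was called (limma adjusted p = 0.99 and 0.056).

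Whether the fall differed within the Fos family was tested on the log2 difference of each pair of genes within each array. Fosb fell by 1.33 ± 0.12 (SE) more in log2 than Fos, and by 2.25 ± 0.17 more than Fosl2; Fos fell by 0.93 ± 0.16 more than Fosl2. In each of these pairs the 2 groups did not overlap, which gives the smallest two-sided exact permutation p that 4 against 4 arrays allow, 0.0286. Adjusted over the 9 pairs tested within the Fos and Egr families it was 0.0857, so no pair passed. Even at the smallest p, a pair could pass this adjustment only if most of the 9 pairs also reached it. The result therefore does not show that the falls were equal. With 16 added to each signal 6 of the 9 pairs passed (exact permutation, adjusted p = 0.0429), and the difference between Fos and Fosb was then 0.71; under normexp correction it was 0.18 (exact permutation, adjusted p = 0.0964).

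Egr proteins are zinc finger transcription factors that bind GC-rich sites. Egr1, also called Zif268, had signals of 506, 635, 654 and 618 with the scrambled shRNA and 323, 391, 338 and 391 with the Sirt6 shRNA. Scrambled shRNA replicate 1 was the lowest of its group yet still above every Sirt6 shRNA array. The level fell by 0.78 ± 0.0999 (SE) in log2, to 58.2% of the control (limma adjusted p = 0.00099).

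Egr2, also called Krox20, had signals of 302, 410.1, 374 and 362 against 193, 187, 198 and 199.9 on its brighter probe. It was 1.90-fold lower there (95% interval 1.67 to 2.17; limma adjusted p = 0.00017), and the groups did not overlap. Its dimmer probe, which lies earlier in the transcript, gave 51.0, 59.4, 52.3 and 51.5 against 51.1, 54.1, 53.7 and 39.6. On that probe the groups overlapped, with a log2 fold change of -0.16 ± 0.10 (SE; adjusted p = 0.28 over all kept probes, limma). The probes of Egr2 therefore disagree in size, and their mean gave -0.54 in log2 (limma adjusted p = 0.0011).

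Egr3, a close relative of Egr1 also known from muscle spindles and sensory innervation, was read near background. Its kept probe, for which the files give no genome position, had signals of 17.5, 23.9, 26.3 and 20.0 with the scrambled shRNA and 18.9, 20.1, 16.1 and 12.5 with the Sirt6 shRNA. The groups overlapped, and the log2 fold change of -0.42 (95% interval -0.81 to -0.031 before adjustment) did not pass (limma adjusted p = 0.097). Under normexp background correction it passed with a smaller change, -0.15 in log2 (limma adjusted p = 0.017). The other probe of Egr3 was well above background on 2 of the 8 arrays and did not pass the filter; tested among all probes without the filter it gave -0.17 in log2 (limma adjusted p = 0.82).

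Egr4, known mainly from the nervous system, had signals of 918, 1042, 990.4 and 1080.3 with the scrambled shRNA. In the Sirt6 shRNA arrays they were 536, 509, 482 and 507, lower in all 4. Its level fell by 1.03 ± 0.063 (SE) in log2, to 49.1% of the control (limma adjusted p = 4.72e-05). Within the family, Egr4 fell by 0.60 ± 0.19 (SE) more in log2 than Egr3 and by 0.24 ± 0.10 more than Egr1, and Egr2 by 0.51 ± 0.19 more than Egr3. None passed over the 9 pairs (exact permutation p = 0.0571 to 0.0857, adjusted p = 0.103 to 0.129). Egr2 and Egr4 differed by 0.097 ± 0.077 (SE).

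Npas4 differs from the rest in being induced selectively by calcium signals in neurons, where it regulates inhibitory synapses. Its signals were low throughout: 28.4, 13.03, 45.1 and 41.7 with the scrambled shRNA and 3.40, 6.70, 6.04 and 4.84 with the Sirt6 shRNA. All 4 scrambled shRNA arrays were well above background and 0 of the 4 Sirt6 shRNA arrays were, so its fall can be given only as a bound. In the means of these arrays it was 3.79-fold lower with a floor put on the Sirt6 shRNA arrays. For this each Sirt6 shRNA array took the higher of its own signal and the lowest signal of any probe well above background there. That floor is the lowest over all probes and not the detection limit of the Npas4 probe, so the bound is approximate. This bound leaves out the spread among the scrambled shRNA arrays. The 95% interval of the fitted fold, 3.09 to 11.1, reaches below it. Since only the scrambled shRNA arrays carried Npas4 past the filter, its adjusted p of 0.0025 (limma) is given as a value and supports nothing. Without a filter on low signal the adjusted p was 0.0077 (limma). Scrambled shRNA replicate 2, at 13.03, was the lowest of its group by a wide margin but above all Sirt6 shRNA arrays. With 16 added to each signal the log2 fold change was -1.16, and with normexp correction -0.47.

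Ier2, which responds to growth factors as well as to activity, had the smallest called change. The brighter probe gave signals of 3168, 3308, 3595 and 3484 with the scrambled shRNA and 2738, 2706, 2910.5 and 2981 with the Sirt6 shRNA, without overlap. Its level fell by 0.30 ± 0.048 (SE) in log2, to 81.3% of the control (limma adjusted p = 0.0028). The probe printed above, near the start of the transcript, gave 33.5, 35.7, 38.1 and 34.5 against 24.6, 28.0, 26.04 and 26.7, a fall of 0.47 ± 0.056 (SE) in log2. Scaling on the spike-in probes ended the call on the brighter probe (log2 -0.23, limma adjusted p = 0.15).

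**Figure D2:**
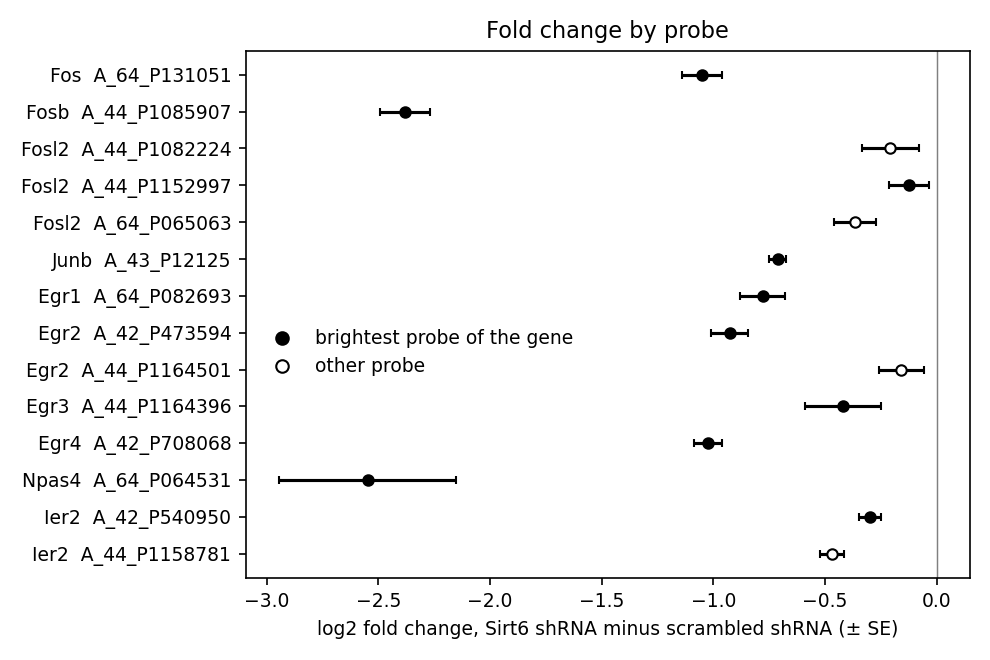
Log2 fold change (x axis, Sirt6 shRNA minus scrambled shRNA) with its SE for the 14 kept probes of the 10 genes, 4 arrays per group. Filled points are the brightest probe of a gene and open points its other probes; those of Egr2 lie at -0.93 and -0.16, and those of Fosl2 between -0.37 and -0.12.

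**Figure D3:**
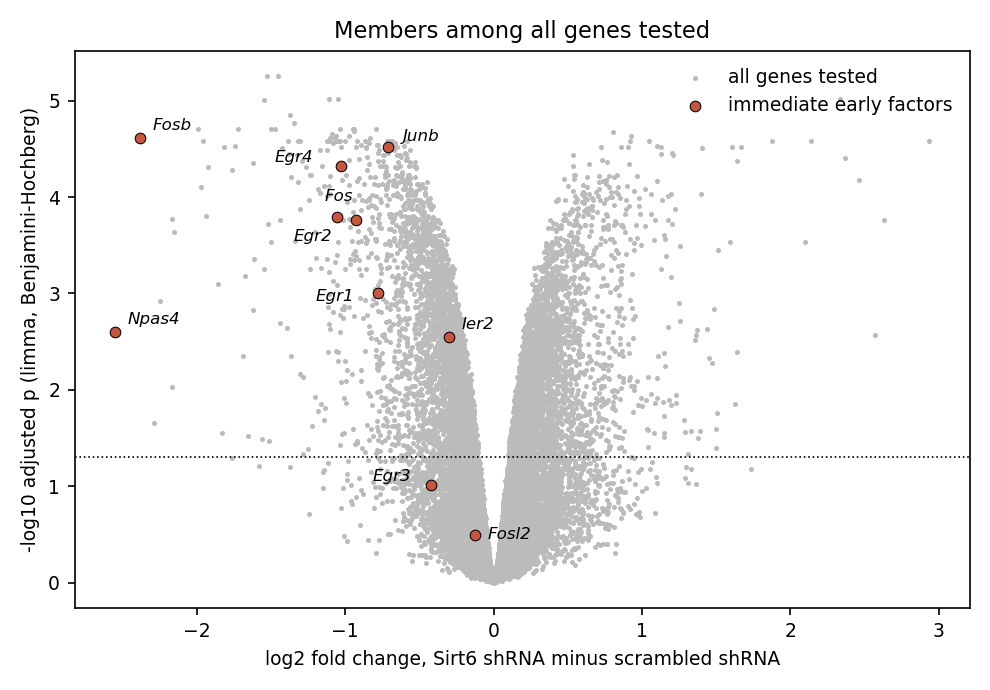
All 22588 genes tested, with log2 fold change on the x axis and -log10 of the limma adjusted p on the y axis; the dotted line marks an adjusted p of 0.05. The 10 immediate early genes are labelled, 8 of them above the line on the side lower with the Sirt6 shRNA. The fitted position of Npas4 exceeds its approximate bound of 3.79-fold.

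Promoters of immediate early genes are known for the CArG box, which binds Srf, and for the cyclic AMP response element (CRE), which binds Creb. The table of RefSeq promoters (build GRCr8) held 8 of the 10 genes, and the 250 bases before each annotated start were searched on both strands. Fos and Egr3 had no entry, so their promoters were not searched and nothing is said here of their motifs. The CArG box stood in 2 of the 8, Egr1 and Egr2, against 1.497% of 33469 promoters. The full CRE, TGACGTCA, stood in 1 of 8, Ier2, against 1.59%. Its shorter form, TGACG, which the full CRE contains on both strands, stood in 5 of 8 against 18.2%: Junb, Egr1, Egr2, Egr4 and Ier2. The TATA box sequence TATAAA was found in Fosb and Junb, 2 of 8 against 12.9%. In Junb it lay at -49 to -44, and in Fosb on the opposite strand at -180 to -175. An Egr site, GCGNGGGCG, stood in Fosl2, 1 of 8 against 4.29%. The AP-1 site TGANTCA was found in 0 of 8, against 6.34%. A match describes letters in this window only.

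Egr1 and Egr2 carried a CArG box of the same sequence at the same distance, bases -83 to -74 from the start, each followed by TGACG on the opposite strand at -66 to -62; Egr1 had another CArG box at -105 to -96. The windows of Egr2, of Egr4, which has TGACG on the opposite strand at -178 to -174 and at -110 to -106 and no CArG box, and of Ier2 are shown to compare these arrangements. Capitals mark the CArG box, the CRE and its short form. That of Egr2 is chr20:21054442-21054691, minus strand, that of Egr4 chr4:119607818-119608067, minus strand, and that of Ier2 chr19:40399123-40399372, plus strand, all in GRCr8.
Egr2: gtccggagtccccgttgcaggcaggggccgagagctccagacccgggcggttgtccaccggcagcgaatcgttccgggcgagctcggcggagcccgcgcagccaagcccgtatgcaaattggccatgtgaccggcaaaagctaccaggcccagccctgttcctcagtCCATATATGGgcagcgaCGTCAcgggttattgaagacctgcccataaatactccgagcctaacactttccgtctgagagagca
Egr4: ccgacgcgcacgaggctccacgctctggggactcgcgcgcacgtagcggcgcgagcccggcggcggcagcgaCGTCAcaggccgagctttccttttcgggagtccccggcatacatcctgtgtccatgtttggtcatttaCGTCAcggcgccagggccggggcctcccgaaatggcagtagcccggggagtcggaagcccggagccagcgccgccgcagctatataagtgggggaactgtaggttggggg
Ier2: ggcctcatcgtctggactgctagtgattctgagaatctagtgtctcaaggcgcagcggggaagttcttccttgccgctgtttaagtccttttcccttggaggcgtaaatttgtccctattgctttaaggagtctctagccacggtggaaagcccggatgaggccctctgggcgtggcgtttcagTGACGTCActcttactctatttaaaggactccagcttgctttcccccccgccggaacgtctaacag

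The factors that act on these promoters moved both ways. Of 32 upstream regulators tested, 6 were lower and 5 higher, a share near the 30.4% of all genes called in either direction, and their median log2 fold change was 0.0068. Elk1, a partner of Srf on promoters with a CArG box, fell by 0.64 ± 0.084 (SE) in log2, while Srf rose by 0.42 ± 0.049. Crem, a relative of Creb whose short forms repress it, fell by 0.45 ± 0.050, and the ribosomal S6 kinase gene Rps6ka2 rose by 0.37 ± 0.069 (limma adjusted p = 0.0055 or less for these 4). Creb1 itself had 0.067 ± 0.056 and was not called (limma adjusted p = 0.41). This list gave 6 or 7 calls rather than 11 without scrambled shRNA replicate 1 or 2 or Sirt6 shRNA replicate 1 or 3.

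Among 16 partners and cofactors of AP-1, Egr and Npas4 proteins, 5 were lower and 1 higher, against 14.8% and 15.6% of all genes, with a median log2 fold change of -0.0016. Fosl1, a further Fos relative, fell by 0.74 ± 0.097 (SE) in log2, Batf, which dimerises with Jun proteins, by 0.64 ± 0.18 with overlapping groups, and the small Maf gene Maff by 0.43 ± 0.084. Nab2, an Egr target that represses Egr proteins, fell by 0.39 ± 0.049, and its relative Nab1 gave -0.0027 ± 0.041 and was not called. The other called genes of the list, named after their values were seen, were Atf3 at -0.20 and Atf7 at 0.30.

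Of 37 other immediate early genes, 16 were lower and 4 higher, against 14.8% and 15.6% of all genes, with a median of -0.15; spike-in scaling gave 9 calls in place of 20. The largest changes were in Arc, a synaptic effector, at -1.92 ± 0.12 (SE) in log2, the nuclear receptors Nr4a2 at -1.12 ± 0.055 and Nr4a1 at -1.01 ± 0.14, and Gadd45b, which acts in stress signalling and DNA demethylation, at -0.91 ± 0.085 (limma adjusted p = 0.0014 or less for the 4). The 4 that rose, named after their values were seen, were Klf4, Klf10, Myc and Ccn1, at 0.34, 0.22, 0.14 and 0.45. Nr4a3 gave 0.10 ± 0.069 and was not called. Among 23 late activity-regulated genes 10 fell and 3 rose, against the same 14.8% and 15.6% of all genes, with a median of -0.11. Spike-in scaling gave 4 calls in place of 13. Inhba, an activin subunit, was at -0.52 ± 0.13 (SE), the neuropeptide gene Tac1 at -0.51 ± 0.054, Fbxo33 at -0.46 ± 0.087 and Rasl11a at 0.41 ± 0.053. Bdnf, the neurotrophin that Npas4 and Creb are known to regulate, gave -0.16 ± 0.099 and was not called (limma adjusted p = 0.25).

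**Figure D4:**
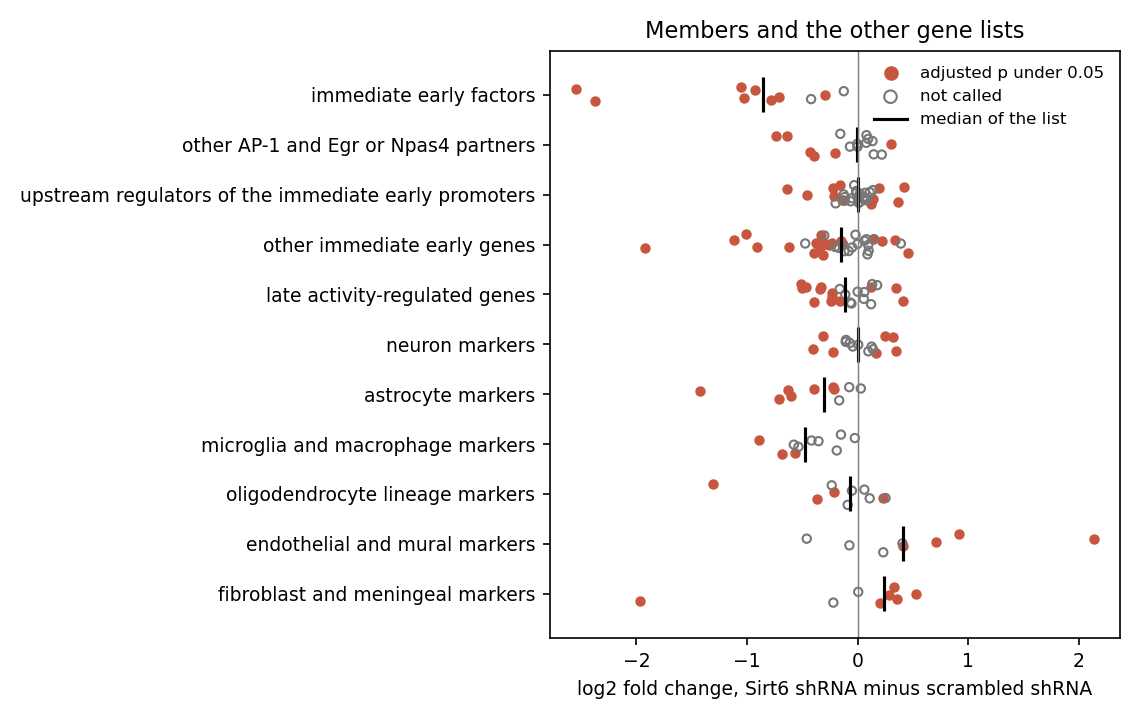
Log2 fold change (x axis, Sirt6 shRNA minus scrambled shRNA) of each tested gene in the 10 immediate early factors and in the other gene lists. Filled points passed an adjusted p of 0.05, open points did not, and bars are medians, which lie at -0.85 for the immediate early factors, -0.15 for other immediate early genes and -0.11 for late activity-regulated genes.

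The cell type markers that moved beside these genes are given for comparison. Their counts stand against 14.8% of all genes called lower, 15.6% called higher and 30.4% called in either direction. In astrocytes, which can also express immediate early genes, S100b was at -1.42 ± 0.078 (SE) in log2, Gfap at -0.71 ± 0.069, Gja1 at -0.63 ± 0.062 and Glul at -0.60 ± 0.059, while Sox9 and Fgfr3, at -0.076 and 0.030, were not called. Among neuron markers Gad1 was at -0.41 and Gad2 at -0.31, both enzymes of GABA synthesis, and Nefm and Tubb3, of the neuronal cytoskeleton, at 0.35 and 0.32. Microglial Tmem119 was at -0.89, P2ry12 at -0.68 and Csf1r at -0.57, with overlapping groups for P2ry12 and Csf1r; this list gave between 1 and 8 calls when 1 array was left out, with 8 without Sirt6 shRNA replicate 2 and 1 without scrambled shRNA replicate 2 or 4 or Sirt6 shRNA replicate 1, 3 or 4. In the oligodendrocyte lineage 3 of 10 markers fell and 1 rose, with Mbp at -1.31, Olig1 at -0.37, Cnp at -0.21 and Cspg4 at 0.23. Of the mural markers Tagln was at 2.14, Myh11 at 0.92 and Acta2 at 0.71, and endothelial Kdr was at 0.41. Cdh5, Tek, Pecam1 and Pdgfrb of the same list, at 0.23, 0.41, -0.46 and -0.074, were not called. Of 8 fibroblast and meningeal markers 1 fell, Fmod at -1.97, and 5 rose, among them Slc6a13, Col1a2 and Col3a1 at 0.53, 0.36 and 0.33. Their share in the fall of the immediate early factors was not tested.

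Within the groups the correlations between pairs of the 10 genes varied widely. After the group means were removed, Pearson's r over the 8 arrays had a median of 0.15 over the 45 pairs of genes, ran from -0.78 to 0.94 and was below 0 in 17 pairs. All pairs below 0 held Fosl2, Egr3 or Npas4, except Fosb with Junb (-0.098) and Junb with Egr4 (-0.042). Signals of Egr3 and Npas4 lay close to background, and the part of measurement noise in these values was not tested. The closest pairs were Junb with Ier2 (0.94), Fosb with Egr4 (0.93) and Fos with Egr1 (0.85). These values share arrays and their scaling and are given as a description. Over all 8 arrays, group difference included, the genes most like the mean profile of the 10 were Csf1 (r = 0.997), Arc, Ube2n, DV726212 and Flcn (each 0.995 or 0.996), out of 20738 genes searched. In all, 1773 genes had an r above 0.9. These values contain the group difference itself. The mean profile was not scaled by gene, so Npas4 and Fosb, at -2.55 and -2.38 in log2, weigh most in it. Npas4 had passed the filter through its scrambled shRNA arrays alone.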

How the data were processed

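The deposited intensity values are, per the file headers and the submitters' processing notes, those of Agilent Feature Extraction 11.5.1.1 for 1-colour arrays (Cy3): processed signals after background subtraction and detrending, raw mean intensity, local background and spot flags. A deposited table of the authors' log2 values equals log2 of the processed signal minus a constant for each array. Here control and outlier spots were dropped, spots of 1 probe averaged in log2, and each array's 75th percentile subtracted. Probes well above background on at least 4 of 8 arrays were kept (28614), the brightest standing for a gene. Members were matched by the file's gene name, other probes through a RefSeq table of GRCr8, used for names only. The test was that of limma 3.58.1 (R 4.3.3; two-sided, Benjamini-Hochberg over all genes), tested on simulated data; pairs of members were compared by exact permutation in SciPy 1.17.1. Members and gene lists were chosen with earlier results of these data known. Named were all members, from each list up to 4 called genes of largest change (where fewer than 2 passed, the 2 with the smallest p), and the 5 genes most like the members' mean profile. Other genes (among them Jun, Jund, Creb1, Nab1, Nr4a3, Bdnf, Snap25, Sox9, Fgfr3 and the called genes beyond those 4) fall outside this rule and were chosen after their values were seen. Alternatives covered scaling, background correction, filters, probe choice, moderation, a block for the replicate number, array weights, and leaving out each array. Array number limits the precision.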

Additional observations from a re-analysis of the deposited data

Results flagged for a closer look

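Egr1 in scrambled shRNA replicate 1 stood apart from the other 3 arrays of its group. Its normalized log2 level was 0.69, and its gap to the nearest of the others was 0.851 of the group's whole range, above Dixon's 95% critical value for 4 samples. This was 1 of 20 groups examined (10 genes in 2 groups), and chance flags about 1 in 20.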

How the results depend on the processing

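Under the 13 alternatives no member changed direction, and 7 to 9 of the 10 were called lower. Fosl2 was called with the mean of its probes (log2 -0.23), Egr3 with normexp correction (-0.15), and Ier2 lost its call with spike-in scaling (-0.23); Npas4 was not tested where all 8 arrays had to be well above background. The median over the 10 genes was -0.58 with normexp correction and -0.75 with the mean of a gene's probes. Spike-in scaling left 1297 genes lower and 2124 higher, against 3350 and 3523, and median centring left 1999 higher; the cause was not tested. With spike-in scaling the calls were 4 for upstream regulators, 9 for other immediate early genes, 4 for late genes, 3 for neuron markers and 2 for oligodendrocyte markers. Without a filter on low signal there were 6 calls for upstream regulators and 1 for microglia markers; the latter had 5 with normexp correction, 5 with array weights and 6 with the replicate block. With 16 added to each signal 6 of 9 family pairs passed. Leaving out 1 array gave 6 to 10 calls for upstream regulators and 1 to 8 for microglia markers, and 8 members lower each time; the exact test of pairs cannot reach 0.05 with 7 arrays and was not run there. The replicate number as a block called 3221 genes lower and changed no member's call. Same-numbered arrays correlated at 0.033 to 0.16 in their deviations from the group means, not above 0.1 in every pair, and 4 of 8 arrays correlated best with their own number, so the numbers were not taken as pairs. Signals of Npas4, Egr3 and the dimmer probes lay close to background, which limits their fold changes.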
